A study of Homo sapiens with 12 samples.

Results

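The genes described here encode natural killer (NK) lectin-like receptors of human chromosome 12, with KLRK1, the gene of NKG2D, at their centre. They are KLRK1, the antisense RNA KLRK1-AS1, KLRC1, KLRC2, KLRC3, KLRC4, KLRD1, KLRB1, KLRF1 and KLRG1, which make 10 of 60656 listed features. They were taken by gene name. KLRK1-AS1 was found by its identifier, because it was listed under the clone name AC022075.1. The set was chosen by the TPM of KLRK1 under decitabine and vehicle, which were already known, so its values in the decitabine comparisons are a description, with no test.

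Polyadenylated RNA was sequenced from OCI-LY1, a germinal-centre type diffuse large B-cell lymphoma line. The groups held 3 libraries each: venetoclax-resistant OCI-LY1R cells given 1 µM decitabine for 3 days or DMSO vehicle, and parental OCI-LY1 cells given the same. OCI-LY1R is a derivative of the parental line grown in rising venetoclax, an inhibitor of the survival protein BCL2, to a final 1 µM. It is a single selected line, so an effect of resistance and a chance difference between cell populations cannot be told apart. Decitabine is a deoxycytidine analogue that traps DNA methyltransferases and lowers DNA methylation. The labels do not say that replicates were separate cultures, so p-values speak only of the spread among the libraries at hand, which may be technical. Columns of the resistant table carry a treatment and a number that parental titles also bear, so they were matched to groups only, and a, b and c stand for their numbers in order.

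NKG2D is an activating receptor of NK cells and of some T cells. It pairs with the adaptor DAP10 and binds stress-induced ligands of the MIC and ULBP families on target cells. KLRC1 (NKG2A, inhibitory), KLRC2 (NKG2C, activating) and KLRC3 (NKG2E) form heterodimers with CD94, the product of KLRD1, while KLRC4 (NKG2F) is a close relative. KLRB1 encodes CD161, KLRF1 encodes NKp80, and KLRG1 encodes an inhibitory receptor for cadherins. B cells are not known for expressing these receptors.

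In GENCODE 29 (GRCh38), KLRK1 lies on the minus strand of chromosome 12 at 10372353 to 10391874, with 3030 exon bases. KLRC4 (10407382 to 10409757), KLRC3 (10412312 to 10420595), KLRC2 (10426854 to 10442300) and KLRC1 (10442264 to 10454685) follow upstream of it on the same strand. KLRK1-AS1 (10363769 to 10398506) and KLRD1 (10226058 to 10329600) lie on the plus strand. KLRB1 (9594551 to 9607886, minus), KLRF1 (9827481 to 9845007, plus) and KLRG1 (8950044 to 9010760, plus) lie nearer the chromosome end. KLRK1 and KLRK1-AS1 share 91 exon bases on opposite strands, which is 3.0% of the exon length of KLRK1 and 3.22% of that of the antisense gene. An annotated read-through gene, KLRC4-KLRK1 (10372353 to 10410146), shares 1900 exon bases with KLRK1 on the same strand, 62.7% of the exon length of KLRK1.

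**Figure D1:**
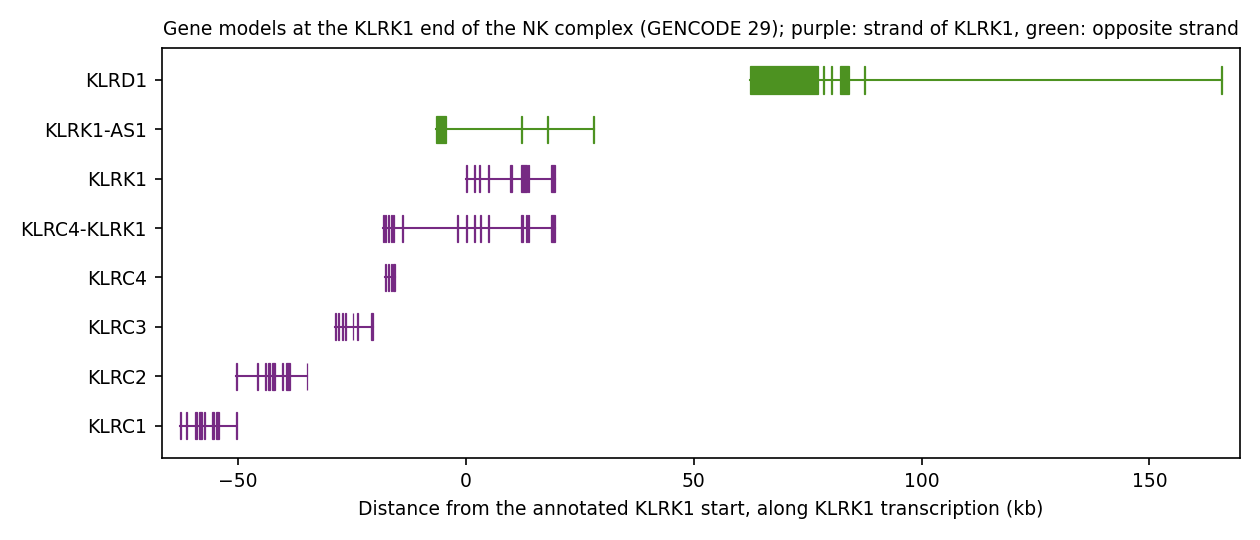
Gene models (GENCODE 29) around KLRK1, drawn to scale as distance in kb from the annotated KLRK1 start along KLRK1 transcription. Boxes are merged exons (the shortest widened to be visible) and lines the gene span; purple genes lie on the strand of KLRK1 and green genes on the opposite strand, and the read-through model KLRC4-KLRK1 spans KLRC4 and KLRK1.

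The bases upstream of 3 members are shown because these windows differ in how many CG dinucleotides they hold. CG dinucleotides can carry the DNA methylation that decitabine lowers. KLRC3 and KLRC4 were the highest KLRC genes of the only library in which KLRC genes were above 1 TPM. KLRG1 has the window with the most CG among the 5 members that have windows. Each window is the 250 bases before the annotated start, from RefSeq (GRCh38.p14), 5′ to 3′ on the strand of the gene, with CG in capitals. The KLRC4 window is chr12:10409758-10410007, the KLRC3 window chr12:10420596-10420845 (both minus strand) and the KLRG1 window chr12:8949794-8950043 (plus strand).
KLRC4: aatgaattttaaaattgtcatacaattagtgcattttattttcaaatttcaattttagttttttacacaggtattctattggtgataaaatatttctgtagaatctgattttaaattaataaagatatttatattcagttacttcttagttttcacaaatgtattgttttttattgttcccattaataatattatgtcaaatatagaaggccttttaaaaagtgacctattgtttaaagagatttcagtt
KLRC3: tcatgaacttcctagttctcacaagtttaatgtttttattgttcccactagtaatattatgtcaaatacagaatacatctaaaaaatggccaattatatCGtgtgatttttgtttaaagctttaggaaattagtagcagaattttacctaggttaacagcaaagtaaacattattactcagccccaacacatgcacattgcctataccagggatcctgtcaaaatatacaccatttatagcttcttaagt
KLRG1: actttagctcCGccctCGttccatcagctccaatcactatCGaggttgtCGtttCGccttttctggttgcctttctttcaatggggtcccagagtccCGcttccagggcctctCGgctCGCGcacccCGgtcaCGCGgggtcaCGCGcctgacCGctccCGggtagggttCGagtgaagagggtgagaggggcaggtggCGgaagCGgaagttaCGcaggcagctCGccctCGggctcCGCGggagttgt
The motif counted was CG, which reads the same on both strands. The KLRC4 window held 0 CG and the KLRC3 window 1, while the KLRG1 window held 24. Over the 35116 windows of the RefSeq table the median was 11 CG, and 93.9% held at least 1. Windows with as few CG as KLRC4 made up 6.06%, windows with as few as KLRC3 14.7%, and windows with as many as KLRG1 23.7%. The 5 members with entries in that table were KLRC1, KLRC3, KLRC4, KLRB1 and KLRG1, with 8 windows in all. KLRK1, KLRK1-AS1, KLRC2, KLRD1 and KLRF1 had no entry, so their CG were not counted. The 3 KLRC1 windows held 1, 0 and 2 CG, the KLRB1 window 0, and the second KLRG1 window 0. The KLRC3 and KLRC4 windows were alike, with 158 of 223 aligned bases identical (70.9%).

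Parental decitabine replicate 3 differed from all 11 others in the kind of feature that carried its signal. Protein-coding features took 89.4% of its TPM (an abundance scaled for feature length and library total) against 26.6% to 32.2% in the others. Features of the antisense class took 0.3% in replicate 3 and 34.9% to 48.7% in the others. Its B-cell markers summed to 3271 TPM, with CD79A at 1491 and MS4A1 (CD20) at 204, while the same 8 genes summed to 34.3 to 194 TPM in the other 11. Replicate 3 listed 23241 features above 0 and the others 9695 to 13130. Each value below belongs to a feature as listed, and whether it stands for RNA of the named strand in the 11 libraries was not tested. Replicate 3 was left out of the fits and is given apart throughout. Depth is unknown, since TPM keep no read totals, and no counting interval can be given.

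KLRK1 was present in every decitabine library and listed at 0 in every vehicle library, in both lines. In resistant cells KLRK1 stood at 27.6, 37.4 and 44.2 TPM under decitabine and was listed at 0 in all 3 vehicle libraries. In parental cells it stood at 33.7 and 38.3 TPM in replicates 1 and 2 of the decitabine group and was listed at 0 in all 3 vehicle libraries. Parental decitabine replicate 3 had 28.6 TPM, within the range of the other decitabine libraries although its coding signal as a whole was far higher. Its TPM is therefore not on a like footing with theirs. No vehicle library has that coding signal, so for KLRK1 in replicate 3 decitabine and the properties of that library cannot be told apart. The groups did not overlap in either line, and the highest of the 5 decitabine values was 1.60 times the lowest. Because every vehicle library was at 0, no fold is given. The difference on the log2(TPM + 1) scale was 5.20 in resistant and 5.21 in parental cells, beside a median of 0.21 over all features in each comparison. It was 8.49 in each line with a pseudocount of 0.1, since the size rests on the pseudocount where one group is at 0. KLRK1 entered these fits only through its decitabine libraries.

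Among 19473 protein-coding features KLRK1 ranked 1054, 912 and 787 from the top in resistant decitabine libraries a, b and c, and 927 and 873 in parental decitabine replicates 1 and 2. In parental decitabine replicate 3 it ranked 3793. Replicate 3 had 14068 coding features above 0 and the 5 others 6270 to 7149.

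**Figure D2:**
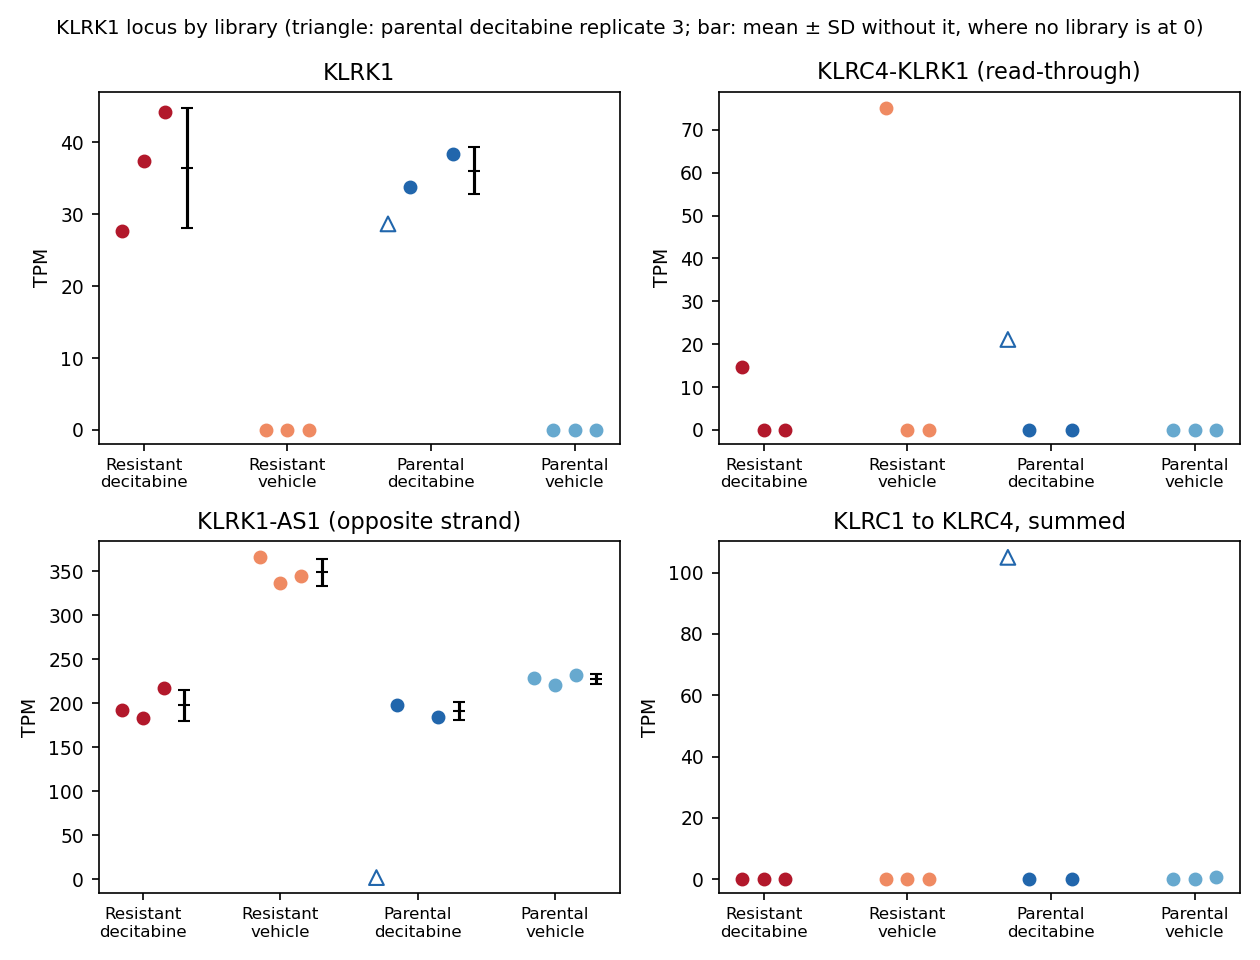
TPM of KLRK1, the read-through KLRC4-KLRK1, KLRK1-AS1 and the sum of KLRC1 to KLRC4 in each library, by group; filled points are libraries, open triangles parental decitabine replicate 3, and bars the mean ± SD without it in groups with no library at 0. KLRK1 is at 27.6 to 44.2 TPM in all decitabine libraries and at 0 in all 6 vehicle libraries, while the summed KLRC genes reach 105.0 TPM only in replicate 3.

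The levels of KLRK1 under decitabine overlapped between the lines. Its mean was 36.4 ± 8.35 TPM in resistant (SD, n = 3) and 36.0 ± 3.26 TPM in parental cells (SD, n = 2). The log2 difference, resistant over parental, was −0.01 (SE 0.25), given with no test because these values chose the set. Of 9029 features tested there, 0.831% were called in either direction, and of 2 members in the fit 0 were called (0 at an unadjusted p under 0.05). With KLRK1 at 0 in all vehicle libraries, the difference between the decitabine responses of the lines equals this value by construction.

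The read-through gene, which shares KLRK1 exons, was listed in 1 resistant vehicle library. KLRC4-KLRK1 was listed at 14.7 TPM in resistant decitabine library a and at 0 in libraries b and c, against 75.1 TPM in resistant vehicle library a and 0 in libraries b and c. In parental cells it was at 0 in decitabine replicates 1 and 2 and in all 3 vehicle libraries, with 21.1 TPM in replicate 3. Of the 50-base stretches in KLRK1 transcripts, 60.4% also occur in the read-through transcripts, so reads of the shared exons can be assigned to either. Summed with the read-through, KLRK1 came to 42.3, 37.4 and 44.2 TPM in resistant decitabine libraries and to 75.1, 0 and 0 TPM in resistant vehicle libraries. The resistant groups then overlapped, and the log2 difference was 3.32 in place of 5.20. In parental cells the sum was the same as KLRK1 alone in the 5 libraries compared and 49.8 TPM in replicate 3.

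KLRK1-AS1 was the most abundant member in the 11 libraries and the only one present in every library. It stood at 192, 183 and 217 TPM in resistant cells under decitabine and at 366, 336 and 344 TPM under vehicle. The resistant groups did not overlap, and the log2 difference was −0.82. In parental cells KLRK1-AS1 stood at 198 and 184 TPM in replicates 1 and 2 given decitabine and at 229, 221 and 232 TPM under vehicle, a log2 difference of −0.25 with no overlap. That difference was −0.44 by median-ratio scaling and −2.26 with replicate 3 included. Parental decitabine replicate 3 listed it at 1.89 TPM, lower than any other library by far. By mean level the groups ran from resistant vehicle (349 ± 15.4 TPM) through parental vehicle (227 ± 5.75) and resistant decitabine (198 ± 17.8) to parental decitabine (191 ± 9.78; SD, n = 3, 3, 3 and 2). Only the last pair of neighbours in that order overlapped.

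As background to these descriptions, 3.59% of 8579 features were called with decitabine in resistant cells by limma at an adjusted p under 0.05, 2.83% higher and 0.758% lower. In parental cells 1.86% of 8122 features were called, 1.38% higher and 0.48% lower. Of the 10 members 2 passed the filter of a mean of at least 1 TPM in each comparison, namely KLRK1 and KLRK1-AS1. In resistant cells 1 was called higher and 1 lower, and in parental cells 1 higher and 0 lower. The lower call, of KLRK1-AS1, was lost without any 1 of the 6 resistant libraries, by quantile scaling, with no filter and with a replicate block. The higher call of KLRK1 was lost in parental cells without vehicle replicate 1, with replicate 3 included and with a replicate block. In resistant cells it was lost with a replicate block and when summed with the read-through. Groups without overlap were far more common, with 19.8% of features higher and 8.58% lower in resistant cells, and 27.9% higher and 11.6% lower in parental cells. Since the decitabine values of KLRK1 chose the set, nothing is read from these counts.

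KLRK1-AS1 was higher in resistant than in parental cells under vehicle. The 3 resistant libraries, at 336 to 366 TPM, all lay above the 3 parental libraries, at 221 to 232 TPM. The log2 difference was 0.62 (SE 0.09, 95% interval 0.40 to 0.83; limma adjusted p = 0.0303), beside a median of 0.11 over all features. It was the 1 member tested there and was called, while 2.8% of 7761 features were called in either direction and 1.73% as higher, and 17.8% were higher without overlap. The call was lost without any 1 of the 6 libraries (adjusted p 0.0523 to 0.119) with no filter (0.0824) and under both other scalings (0.098 and 0.0613), with a log2 difference of 0.43 to 0.64 over all alternatives.

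Under decitabine KLRK1-AS1 was at 183 to 217 TPM in resistant and at 184 to 198 TPM in parental cells, and the groups overlapped. The log2 difference was 0.05 (SE 0.13, interval −0.30 to 0.39; limma adjusted p = 0.901), and 2.06 with replicate 3 included (adjusted p = 0.655), which listed KLRK1-AS1 at 1.89 TPM. The difference between the decitabine responses was −0.57 (SE 0.14, interval −0.89 to −0.25), which did not pass the test over all features (limma adjusted p = 0.181). With replicate 3 included it was 1.45 (adjusted p = 0.713). For the difference between responses 0.364% of 8505 features were called, and 0 of 2 members in the fit (1 at an unadjusted p under 0.05, KLRK1-AS1). That comparison shares its vehicle libraries with the difference under vehicle.

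**Figure D3:**
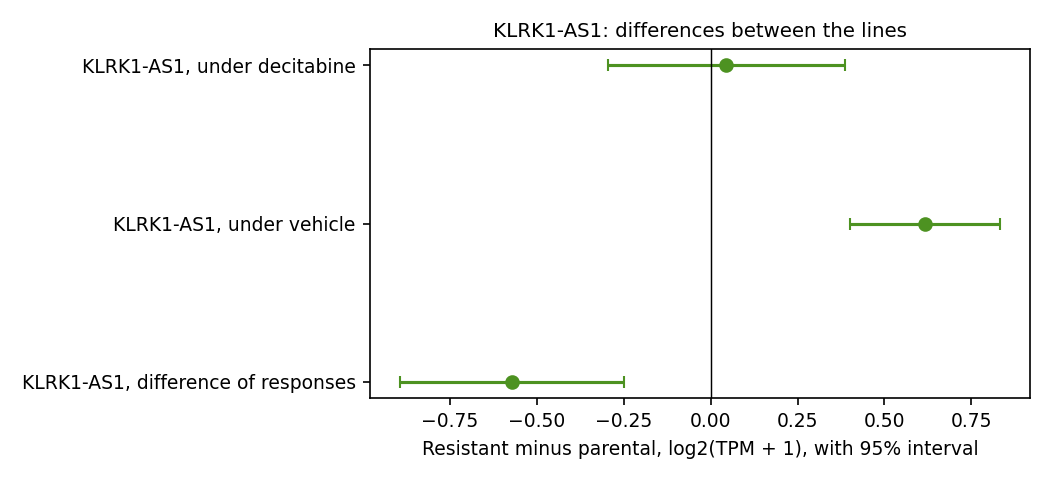
Differences between the lines on the log2(TPM + 1) scale, resistant minus parental, for KLRK1-AS1; points are limma estimates and bars 95% intervals, without parental decitabine replicate 3. KLRK1-AS1 under vehicle lies at 0.62 with an interval of 0.40 to 0.83, and under decitabine at 0.05 with an interval that spans 0.

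The balance between KLRK1 and its antisense RNA separated replicate 3 from the rest. The KLRK1-AS1 level was 6.97, 4.90 and 4.92 times that of KLRK1 in resistant decitabine libraries a, b and c, and 5.88 and 4.81 times in parental decitabine replicates 1 and 2. In replicate 3 it was 0.0661 times. KLRK1 thus made up 12.5% to 17.2% of the summed TPM of the pair in 5 decitabine libraries and 93.8% in replicate 3. The shares of protein-coding and antisense-class features given above moved with this balance, and their part in it was not tested.

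The NKG2 genes upstream of KLRK1 had signal in replicate 3 and almost none elsewhere. KLRC3 was listed at 66.8 TPM there, KLRC4 at 21.4, KLRC2 at 15.4 and KLRC1 at 1.41 TPM, 105.0 TPM in sum. In the other 11 libraries KLRC3 was at 0.847 TPM in parental vehicle replicate 3 and at 0 in the rest. KLRC1, KLRC2 and KLRC4 were listed at 0 in all 11. KLRC3 ranked 1720 among coding features of replicate 3, above KLRK1, KLRC4 4731 and KLRC2 5708. No vehicle library has the coding signal of replicate 3, so for these genes decitabine and the properties of that library cannot be told apart.

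These close relatives share sequence, which makes their separate values uncertain. Of the 50-base stretches in KLRC2 transcripts, 19.7% also occur in KLRC1 and 13.9% in KLRC3. Of those in KLRC3, 19.8% also occur in KLRC2. KLRC4 shares 50.3% of its exon length with the read-through gene. A further annotated coding feature, AC068775.1, covers 56.8% of the KLRC3 exon length on the same strand and was listed at 0 in all 12 libraries.

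The partner and the more distant receptors stayed low in every library. KLRD1 encodes CD94, the partner of NKG2A, NKG2C and NKG2E but not of NKG2D. KLRD1 was at 1.26 TPM in parental vehicle replicate 2, at 0.319 TPM in parental decitabine replicate 3 and at 0 elsewhere. KLRB1 was at 0.708 TPM in resistant decitabine library c, at 0.951 TPM in parental decitabine replicate 2 and at 0.461 TPM in parental vehicle replicate 3, with 0 elsewhere. KLRF1 was listed at 0 in all 12 libraries. KLRG1 was at 5.68 TPM in parental decitabine replicate 3 and at 0 in the other 11. In all, 8 members were above 0 and 7 at or above 1 TPM in replicate 3, while 5 members were at 0 in all other libraries.

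Over the stretch of chromosome 12 between KLRB1 and the pseudogene KLRA1P, 46 features are listed. Only 4 of them reached 5 TPM in any of the 11 libraries, namely KLRK1, KLRK1-AS1, KLRC4-KLRK1 and GABARAPL1, an autophagy gene. In replicate 3, 16 of the 46 reached 1 TPM, and 17 were at 0 in all 12 libraries. The C-type lectin genes CLEC12A and CLEC9A, of myeloid cells, CLEC1B, of platelets, and OLR1, of endothelium, were among those at 0 throughout. CLEC2D, whose product LLT1 is the ligand of CD161, was at 6.78 TPM in replicate 3 and at most 0.891 TPM elsewhere. A separate list of 22 neighbours reached beyond this stretch. Of these, 4 were tested for decitabine in resistant cells, namely GABARAPL1, KLRC4-KLRK1, PHC1 and YBX3. In parental cells 3 were tested, the same genes without KLRC4-KLRK1. PHC1 and YBX3 lie outside the stretch. In both lines 0 were called (0 at an unadjusted p under 0.05). Their median log2 changes were −0.68 and −0.69, beside 0.21 over all features, and their lowest limma adjusted p values were 0.381 and 0.411.

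**Figure D4:**
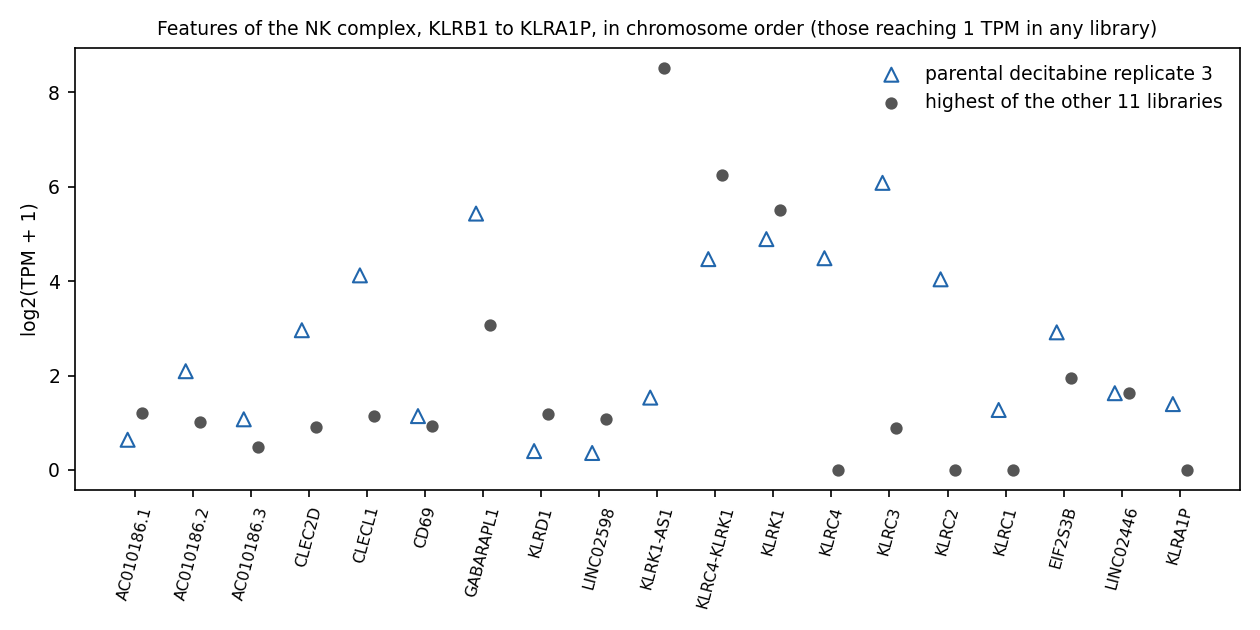
Features between KLRB1 and KLRA1P in chromosome order that reached 1 TPM in any library, as log2(TPM + 1); open triangles are parental decitabine replicate 3 and filled points the highest of the other 11 libraries. KLRC1 to KLRC4 are high in replicate 3 and at or near 0 elsewhere, and KLRK1-AS1 shows the opposite order.

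The pattern of KLRK1 was rare across the tables. Of 60656 features, less the 1166 with repeated names, 42383 were at 0 in all 6 vehicle libraries. Of those, 66 were above 0 in all 5 decitabine libraries and 20 at or above 1 TPM in each. At 10 TPM or more in each there were 2, KLRK1 and the processed pseudogene AC113398.1, so KLRK1 was the only protein-coding one. AC113398.1 was at 33.6, 25.0 and 24.9 TPM in resistant and 54.6 and 20.01 TPM in parental decitabine libraries, with 2.72 TPM in replicate 3. Of the pair, KLRK1 alone was at 10 TPM or more in replicate 3, whose coding signal no vehicle library has. The reverse pattern, at least 10 TPM in all vehicle libraries and 0 in all 5 decitabine libraries, was found in 0 features. KLRK1 was chosen for this pattern, so these counts describe it and test nothing. The counts also take KLRK1 as its own feature. Summed with the read-through KLRC4-KLRK1, KLRK1 was at 75.1 TPM in resistant vehicle library a and would not be among them.

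**Figure D5:**
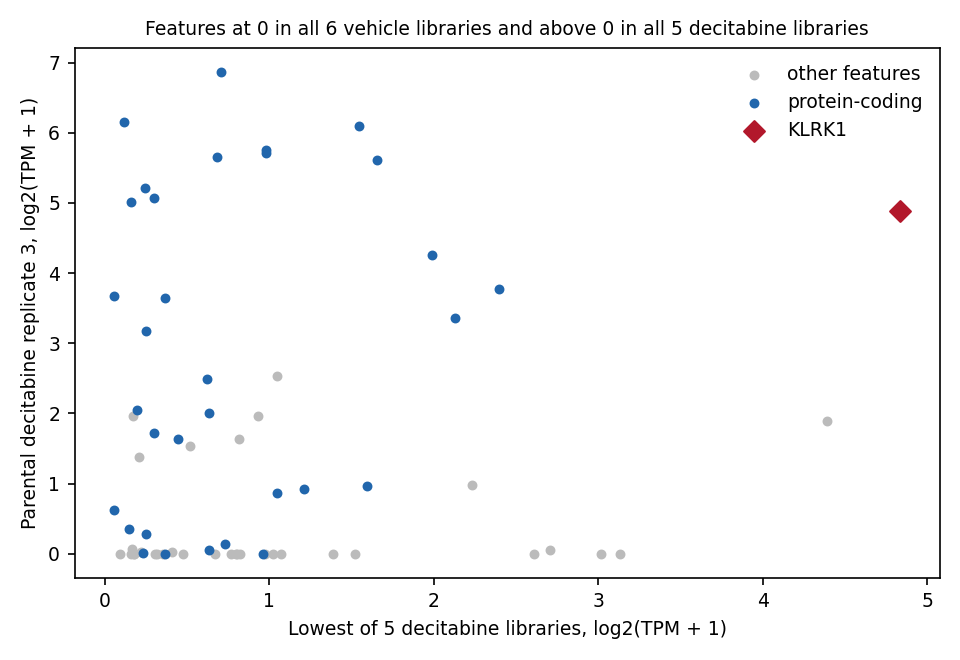
Features listed at 0 in every vehicle library and above 0 in all 5 decitabine libraries, by the lowest of those 5 values (horizontal) and the value in parental decitabine replicate 3 (vertical), both as log2(TPM + 1). KLRK1 (red), as its own feature without the read-through KLRC4-KLRK1, lies farthest to the right with a lowest value of 27.6 TPM. Other protein-coding features are blue and the rest grey.

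The coding genes closest to KLRK1 in pattern were ADO (Pearson r = 0.9927), TNK2 (0.9916), SIVA1 (0.9908), TIMM23B (0.9895) and NCKAP1L (0.9886), of 4634 compared over 11 libraries. These libraries separate by treatment, so r mostly measures that separation, and it is given with no test. ADO, a thiol dioxygenase, was at 5.49, 6.51 and 4.92 TPM in resistant and 4.33 and 4.27 TPM in parental decitabine libraries, and at 0 in all vehicle libraries. TNK2, a non-receptor tyrosine kinase, was at 53.0, 54.8 and 60.0 TPM in resistant decitabine libraries and at 24.7, 23.7 and 19.5 TPM in resistant vehicle libraries. In parental cells TNK2 was at 52.4 and 54.8 TPM under decitabine and at 22.7, 23.3 and 23.2 TPM under vehicle. In replicate 3 these genes stood between 9.30 TPM (TIMM23B, which has a near-identical relative) and 157 TPM (TNK2). KLRK1 had the highest TPM under decitabine of those listed at 0 under vehicle.

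The NKG2D ligands were listed at or near 0 in the 11 libraries, as was HLA-E, which nearly all nucleated cells express. Their 8 genes (MICA, MICB, ULBP1, ULBP2, ULBP3, RAET1E, RAET1G and RAET1L) summed to at most 0.766 TPM in resistant decitabine and 1.26 TPM in resistant vehicle libraries, and to 0 in the 5 parental libraries. In parental decitabine replicate 3 they summed to 12.7 TPM, led by MICB at 5.51, ULBP2 at 2.88, ULBP3 at 2.55 and MICA at 1.53 TPM. None of the 8 passed the filter, so 0 were tested in any comparison. The 6 ligands of the other receptors (HLA-E for CD94/NKG2, CLEC2D, CLEC2B, and the cadherins CDH1, CDH2 and CDH4 for KLRG1) summed to at most 1.26 TPM in the 11 and 7.74 TPM in replicate 3, and 0 were tested. HLA-E was at 0.121 TPM in resistant decitabine library b and at 0 in the other libraries, replicate 3 included.

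DAP10, the signalling partner of human NKG2D, is encoded by HCST, and no call was made for it. HCST was at 0, 19.9 and 22.3 TPM in resistant cells under decitabine and at 26.6, 29.1 and 22.4 TPM under vehicle. In parental cells it was at 0 and 30.4 TPM under decitabine and at 38.9, 39.8 and 47.6 TPM under vehicle, with 24.2 TPM in replicate 3. The groups did not overlap in either line, yet the log2 differences of −1.77 (SE 1.24; limma adjusted p = 0.479) and −2.94 (SE 1.51; adjusted p = 0.379) rest on libraries at 0. Of its exon length 50.1% lies opposite another listed feature, AD000864.1. TYROBP, the gene of DAP12, which serves NKG2C, was at 10.1 TPM in replicate 3 and at 0 in the other 11.

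Of the 12 adaptor and signalling genes, 2 were tested for decitabine in resistant and 3 in parental cells, and 0 were called (0 and 1 at an unadjusted p under 0.05). Their median log2 changes were −0.85 and −1.72, beside 0.21 over all features. PTPN6 (SHP-1), a phosphatase recruited by NKG2A, was at 0 in parental decitabine replicates 1 and 2 and at 1.68, 2.95 and 2.37 TPM under vehicle (log2 difference −1.72, SE 0.35; limma adjusted p = 0.105). SYK (172 TPM), PLCG2 (159 TPM), GRB2 (88.5 TPM) and VAV1 (56.5 TPM), which B cells use for antigen receptor signalling, were well above 0 in replicate 3 and at no more than 2.57 TPM in any other library. Between the lines, 3 of these genes were tested under vehicle and 2 under decitabine, with 0 called by limma (2 and 1 at an unadjusted p under 0.05) and lowest adjusted p values of 0.107 and 0.195.

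Markers of NK and cytotoxic cells were low with and without decitabine. The 14 genes summed to 0.170 to 5.50 TPM in resistant decitabine, 0 to 3.95 in resistant vehicle, 0.241 to 4.11 in parental decitabine and 1.52 to 4.99 in parental vehicle libraries. In replicate 3 they summed to 4.60 TPM. GNLY, GZMA, GZMB, GZMH, CST7, FGFBP2, FCGR3A and TBX21 were listed at 0 in all 12 libraries. PRF1 (perforin) was the most abundant, at up to 3.58 TPM, and 1 or 2 of the 14 were tested for decitabine with 0 called by limma and 0 at an unadjusted p under 0.05 (median log2 change 0.64 in resistant and −0.30 in parental cells). The 9 T-cell markers summed to 1.31 to 1.99 TPM in resistant decitabine, 0 to 2.01 in resistant vehicle, 0 to 1.26 in parental decitabine and 0 to 0.687 in parental vehicle libraries. In replicate 3 these T-cell markers summed to 27.3 TPM, with TRAC at 23.2 and CD247 at 3.35 TPM. CD3D and CD2 were at 0 in all 12. Fewer cells of a type and less RNA per cell cannot be told apart in bulk RNA. Protein-coding features took 26.6% to 32.2% of TPM in the 11 libraries other than replicate 3, against 89.4% there. The B-cell marker MS4A1 was at 0 in 9 of those 11. Whether low NK and T-cell markers in those libraries stand for low RNA was not tested.

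The B-cell label held in replicate 3, where all 8 B-cell markers were above 1 TPM. In the other 11 libraries they were low, with CD79A at 3.39 to 8.74 TPM and PAX5 at 10.9 to 34.7 TPM. Of the 8, 7 were tested for decitabine in each line and 0 were called by limma (at an unadjusted p under 0.05, 2 in resistant and 0 in parental cells), with median log2 changes of 0.21 in resistant and 0.09 in parental cells. KLRK1 at 27.6 to 44.2 TPM therefore exceeded CD79A in each of the 5 decitabine libraries, and was far below it in replicate 3 (28.6 against 1491 TPM).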

How the data were processed

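Stranded polyadenylated libraries were sequenced on DNBSEQ, per the labels' protocols. HISAT2, StringTie and DESeq2 with build hg38 are named in the submitters' processing notes, without versions, strand setting or annotation. Both deposited tables, 1 per line, hold decimals and state no unit. The values were taken as TPM made by the authors, since each library sums to 1000000, which also allowed the tests between lines. Exact 0 values were read as listed at 0.

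Names were used, because 24.1% of identifiers belong to the name beside them; for all 10 members name and identifier agree, KLRK1-AS1 through its clone name. In parental decitabine replicate 3 the median over 73 ribosomal protein genes was 1038 TPM by name and 0.0573 TPM by identifier. Features with repeated names (1166 of 60656) were left out. Features averaging at least 1 TPM were fitted on the log2(TPM + 1) scale with limma 3.58.1 (trend, R 4.3.3), with Benjamini-Hochberg adjustment over all of them and a threshold of 0.05. These fold changes understate changes of low features. The script was tested on simulated data. Positions come from GENCODE 29 (GRCh38) and upstream bases from RefSeq (GRCh38.p14).

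Named were every member, the called and up to 4 most abundant genes of each list, and the 5 coding features closest to KLRK1; some list genes were named after their values were seen. Members and lists were chosen with earlier results of these data known. Alternatives were quantile and median-ratio scaling, no filter, a minimum mean of 5 TPM, a pseudocount of 0.1, replicate 3 included, leaving out each library, and a replicate block within each line.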

Additional observations from a re-analysis of the deposited data

Results flagged for a closer look

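Parental decitabine replicate 3 lies outside the comparisons, and the following values in it exceeded those of every vehicle library of the same line. No vehicle library has its coding signal, so decitabine and the properties of that library cannot be told apart. KLRC3 was at 66.8 TPM, KLRK1 at 28.6 TPM, KLRC4 at 21.4 TPM and the read-through KLRC4-KLRK1 at 21.1 TPM. KLRC2 was at 15.4 TPM, KLRG1 at 5.68 TPM and KLRC1 at 1.41 TPM. In the parental vehicle libraries these features were at 0, except KLRC3 at 0.847 TPM in replicate 3. Of the 7 features, KLRK1 was also present in parental decitabine replicates 1 and 2, at 33.7 and 38.3 TPM. The groups held 3 libraries or fewer, too few for a check of single outlying libraries.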

How the results depend on the processing

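Counts of called features depended on the settings. In parental cells 151 features were called for decitabine, 35 with no filter, 0 with replicate 3 included (262 at an unadjusted p under 0.05), and 14 to 264 leaving out 1 library. In resistant cells 308 were called, 190 with quantile scaling, 73 with no filter, 194 at a mean of at least 5 TPM, 90 to 197 leaving out 1 library, and 2 with a replicate block (1519 unadjusted). Between the lines under vehicle 217 were called, 68 with no filter and 58 to 191 leaving out 1 library. Under decitabine 75 were called, 21 with no filter, 0 with replicate 3 included (285 unadjusted), and 0 to 17 leaving out 1 library. For the difference of responses 31 were called, 7 with no filter, 1 with replicate 3 included, and 12 to 47 leaving out 1 library.

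Higher and lower calls were 243 and 65 in resistant cells, 132 and 58 by quantile and 216 and 124 by median-ratio scaling. They were 112 and 39 in parental cells (85 and 50, 103 and 88), and 134 and 83 between the lines under vehicle (86 and 100, 85 and 97). The median log2 change with decitabine was 0.21 in each line as deposited, −0.03 in resistant and −0.01 in parental cells by quantile scaling, and 0.09 and 0.04 by median-ratio scaling.

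With a replicate block in the parental fit, 0 features were called (978 unadjusted), and the log2 difference of KLRK1 stayed 5.21 and that of KLRK1-AS1 became −0.23. Deviations from the group means correlated at −0.01 in both pairs of same-numbered parental libraries. The 2 decitabine libraries deviate by equal and opposite amounts, so these pairs are not independent. Whether same-numbered libraries were handled together cannot be told from this. The resistant block, on the numbers of its columns, was added after seeing the data; it left the log2 differences at 5.20 and −0.82 and called neither member. Same-lettered resistant libraries correlated at −0.01, 0.03 and 0.04, not each best with its own letter.

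KLRK1 under decitabine, resistant over parental, was −0.01, and 0.10 with replicate 3 included, 0.19 summed with the read-through, and −0.16 to 0.17 leaving out 1 library. For KLRK1-AS1 it was 0.05, and −0.030 by quantile scaling, −0.052 by median-ratio scaling, 2.06 with replicate 3 included, and −0.025 to 0.10 leaving out 1 library. The difference of responses was −0.01 for KLRK1, 0.10 with replicate 3 included, −1.89 summed and −0.16 to 0.17 leaving out 1 library. For KLRK1-AS1 it was −0.57, and 1.45 with replicate 3 included. The KLRK1-AS1 values did not pass the threshold under any of the alternatives run. The log2 difference of KLRK1 with decitabine was 8.49 in each line with a pseudocount of 0.1, and 5.05 to 5.38 in resistant and 5.12 to 5.30 in parental cells leaving out 1 library. That of KLRK1-AS1 in parental cells was −0.34 by quantile scaling, −0.44 by median-ratio scaling and −2.26 with replicate 3 included. The sum with the read-through was chosen after seeing the data. Fits left with 1 library in a group assume that it varies like the others. The causes were not tested.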

Other observations

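Of 19 receptor genes of lymphocytes encoded elsewhere, 2 reached 1 TPM in parental decitabine replicate 3 and 11 were at 0 there. CD96, a receptor of T and NK cells, was at 41.4 TPM in parental decitabine replicate 3 and at 0 in the other 11 libraries. SLAMF6, a receptor of T, B and NK cells, was at 55.8 TPM there and at most 1.55 TPM elsewhere. CD160, a receptor of NK and T cells, was at 0 in replicate 3, at 0.901, 4.41 and 5.01 TPM in resistant decitabine libraries and at 0.147 to 2.44 TPM in the other 8. CD244, a receptor of NK cells, was at 0 in replicate 3 and at up to 1.89 TPM elsewhere. The T-cell receptor segment TRAC was at 23.2 TPM there and at 0 elsewhere, while CD3D, CD3G and CD2 were at 0 in replicate 3. The killer immunoglobulin-like receptor genes KIR2DL1, KIR2DL3, KIR2DL4, KIR3DL1 and KIR3DL2 were listed at 0 in all 12 libraries. Of the 19 receptor genes elsewhere, 2 were tested for decitabine in resistant and 1 in parental cells, with 0 called by limma (0 at an unadjusted p under 0.05) and median log2 changes of 0.69 and −0.98.

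A neighbouring gene took a high or a very low value in libraries of the same group, as KLRC4-KLRK1 did. PHC1, a polycomb gene between KLRG1 and the chromosome end, was at 48.0, 40.5 and 0.667 TPM in resistant decitabine and 0.576, 0.419 and 50.2 TPM in resistant vehicle libraries. In parental cells it was at 0.357 and 0.681 TPM under decitabine (replicates 1 and 2) and at 0.358, 30.9 and 22.1 TPM under vehicle. KLRK1 as its own feature did not differ in this way within any group.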
